A study of Mus musculus with 96 samples.

Results

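The transcripts described here are those of the respiratory chain and the ATP synthase, a set of protein complexes that is built from 2 genomes. Members were all rows of the count table whose mouse symbol begins as those of complex I (Nduf), complex II (Sdh), complex III (Uqcr), complex IV (Cox) or complex V (Atp5) subunits do, or belongs to a protein gene of the mitochondrial genome (mt-Nd, mt-Co, mt-Cytb, mt-Atp), without pseudogenes and assembly factors, and with a mean of at least 5 CPM (a gene's counts scaled to a common library total) over all 96 libraries. Of 110 names that matched, 12 pseudogenes and 12 genes under the minimum were left out. This gave 86 of the 55421 genes in the table, 76 of them nuclear and 10 mitochondrial. The nuclear members were 36 of complex I, 4 of complex II, 8 of complex III, 11 of complex IV and 17 of complex V, assigned by symbol (Ndufa4, which is known to sit in complex IV, is counted with complex I, and Cox7a2l and Atp5s are accessory factors). All 86 passed the count filter that left 15772 genes for testing.

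The libraries were made from liver mRNA of mice aged 12 to 16 weeks, collected every 4 h at 6 times of day, given as zeitgeber time (ZT, with lights on at ZT 0). A Bmal1 line supplied Bmal1 WT and Bmal1 KO mice, and a Cry line supplied Cry1/2 WT mice and mice lacking both Cry1 and Cry2 (Cry1/2 dKO), called Cry WT and Cry KO below. Mice of each genotype were fed ad libitum (AL) or were restricted to feeding at night (RF). This makes 8 groups of 12 libraries, 2 for each time, and each group consists of 2 numbered series of 6 libraries that carry 1 replicate number through the day. All groups thus belong to a knockout line, each with WT mice of its own. The labels do not say whether a knockout was made in the whole body or in the liver alone, and they do not tie libraries to animals, so the p-values measure the spread between libraries. The design asks whether a transcript depends on the clock genes, on meal times or on both.

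Complexes I, III and IV pass electrons from NADH to oxygen and pump protons out of the mitochondrial matrix, complex II feeds in electrons from succinate, and complex V makes ATP from the returning protons. Liver mitochondria use this chain to burn fatty acids and amino acids and to power glucose and urea synthesis. The mitochondrial genome encodes a few hydrophobic core subunits, which are transcribed as long precursors inside the organelle, while all other subunits are nuclear genes, many with promoters that bind NRF1, GABP and ERR-alpha. BMAL1 activates genes with E-box promoters, and CRY1 and CRY2 repress BMAL1 activity.

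Several mitochondrial genes have copies in the nuclear genome, and their sequences are shown because these copies bear on which mitochondrial genes could be measured. In GENCODE M21 (build GRCm38, the same as mm10), mt-Co2 (complex IV subunit 2, chrM:7013-7696) matches the nuclear pseudogene Gm28661 (chr1:24614885-24615565, minus strand) over 681 bases with 0 differences. The first 60 bases of both are identical letter for letter.
mt-Co2 chrM:7013-7072: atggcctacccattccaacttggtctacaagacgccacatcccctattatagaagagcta
Gm28661 chr1:24615506-24615565: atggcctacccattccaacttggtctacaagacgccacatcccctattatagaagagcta
For mt-Co1 (complex IV subunit 1, chrM:5328-6872) the nuclear copy Gm29216 (chr1:24615706-24616197, minus strand) covers bases 1054 to 1545 of the gene, 492 bases, with 6 differences. All 6 fall in the first 60 bases of the overlap, where capitals mark the differing bases.
mt-Co1 chrM:6381-6440: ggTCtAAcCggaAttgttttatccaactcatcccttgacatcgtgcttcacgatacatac
Gm29216 chr1:24616138-24616197: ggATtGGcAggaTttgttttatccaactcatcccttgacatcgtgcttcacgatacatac

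Measured as the share of 100-base windows that also occur in a nuclear transcript, the sharing was 99.5% for mt-Co2 and mt-Atp6 (complex V subunit a) and 99.9% for mt-Co3 (complex IV subunit 3). It was 97.6% for mt-Nd3 and 98.5% for mt-Nd4l, subunits of complex I. The 3 shared members had mean levels of 5.78 CPM (mt-Co2), 5.29 CPM (mt-Atp6) and 5.35 CPM (mt-Co3), which is the range of their nuclear copies Gm28661 at 5.48 CPM, Gm10925 at 8.75 CPM and Gm28437 at 5.78 CPM. In contrast mt-Co1, of which 30.8% of windows are shared, had 25320 CPM, and mt-Cytb (cytochrome b of complex III, chrM:14145-15288), with 0 shared windows, had 11440 CPM. mt-Nd4 had 60.8% and mt-Nd2 3.19% of windows shared, while mt-Nd1, mt-Nd5 and mt-Nd6 had 0. Reads that fit both places cannot be assigned to one genome by sequence, and how such reads were counted is not given in the sources used here. The values of mt-Co2, mt-Co3 and mt-Atp6 are therefore uncertain and do not give the level of the mitochondrial transcript. All counts and medians over the 10 mitochondrial members below still include these 3 genes. mt-Nd3 (0.653 CPM), mt-Nd4l (0.794 CPM) and mt-Atp8 (0.364 CPM) fell under the member minimum, so that 7 of the 13 mitochondrial protein genes were members with less than 90% of windows shared. mt-Atp8 shares 0 windows with annotated nuclear transcripts but is only 204 bases long. Nuclear copies outside annotated transcripts were not searched for any gene. mt-Atp8 (chrM:7766-7969) lies after mt-Co2 and overlaps the start of mt-Atp6. The copies of these neighbours, Gm28661 (chr1:24614885-24615565) and Gm10925 (chr1:24613974-24614651), lie near each other. Whether the stretch between these copies matches mt-Atp8 was not tested.

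Scaled by exon length, the mitochondrial members with less than 90% of windows shared stood far above the nuclear ones. In scaled CPM per kilobase of exon, mt-Co1 reached 16690, mt-Cytb 10200, mt-Nd1 7124, mt-Nd2 6546, mt-Nd5 3513, mt-Nd4 3426 and mt-Nd6 2962. The shared members mt-Co2, mt-Atp6 and mt-Co3, whose values are uncertain, stood at 8.62, 7.9 and 6.95. The highest nuclear members on this scale were Atp5a1 and Atp5b, the catalytic alpha and beta subunits of ATP synthase, at 327.9 and 286.3, followed by Cox6a1 at 239.8 and Cox8a at 236.7. Ndufb2 was lowest at 1.14, and Atp5s, a coupling factor of the ATP synthase that is not a core subunit, stood at 2.61. Where a subunit has tissue isoforms, the liver forms were the members: Cox6a1, Cox7a2, Cox8a, Cox4i1 and Ndufa4 passed, while the muscle forms Cox6a2 (0.0524 CPM) and Cox7a1 (0.79 CPM), the hypoxia-linked Cox4i2 (0.08 CPM) and Ndufa4l2 (1.33 CPM) did not. Among the genes for the ATP synthase c ring, Atp5g3 had 152.7, Atp5g2 26.8 and Atp5g1 23.97 on the length-scaled measure. The members just inside the minimum were mt-Atp6 (5.29 CPM), Atp5s (5.33 CPM), mt-Co3 (5.35 CPM), mt-Co2 (5.78 CPM) and Ndufb2 (6.37 CPM).

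Total counts ran from 1478963 to 35568856 per library with a median of 25422366. Hepatocyte markers summed to between 32400 and 144000 CPM in every library. Transcripts of the targeted genes were still counted in knockouts (Arntl, which encodes BMAL1, at 9.71 to 14.95 CPM in Bmal1 KO AL against 0.272 to 35.3 CPM in its WT; Cry1 at 5.38 to 9.95 CPM in Cry KO AL against 5.95 to 51.4 CPM), and whether these reads lie outside the deleted part cannot be seen in gene counts. Series 2 of Cry KO AL stood apart from all other libraries, with 55.8% of tested genes differing from series 1 of the same group. Between these series 75 of 76 nuclear and 10 of 10 mitochondrial members were higher in series 2, with median log2 differences of 1.16 and 1.09, where 26.2% of all genes were called higher. Its summed level of 8 endothelial markers was 66.9 to 132.6 CPM against 365 to 411 CPM in series 1, its 6 Kupffer cell markers 82.2 to 200.8 against 280.2 to 597.9, its 7 stellate markers 145.6 to 244.7 against 286.4 to 345.6, and its 6 hepatocyte markers 87020 to 144000 against 64530 to 83900. Bulk RNA cannot tell fewer cells of a type from less RNA per cell, and the part of cell makeup in the member results was not tested. The comparisons of mean level, the rhythms and most of the lists are therefore given with and without these 6 libraries; the fit without them holds 90 libraries and 16507 tested genes, and standard errors are smaller in it (Atp5a1 in Bmal1 KO AL 0.0631 against 0.0783), since all groups share 1 estimate of the spread. In Bmal1 WT AL, 12 nuclear members were lower in series 8 than in series 1 (2.95% of all genes were), with a median of -0.17.

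**Figure D1:**
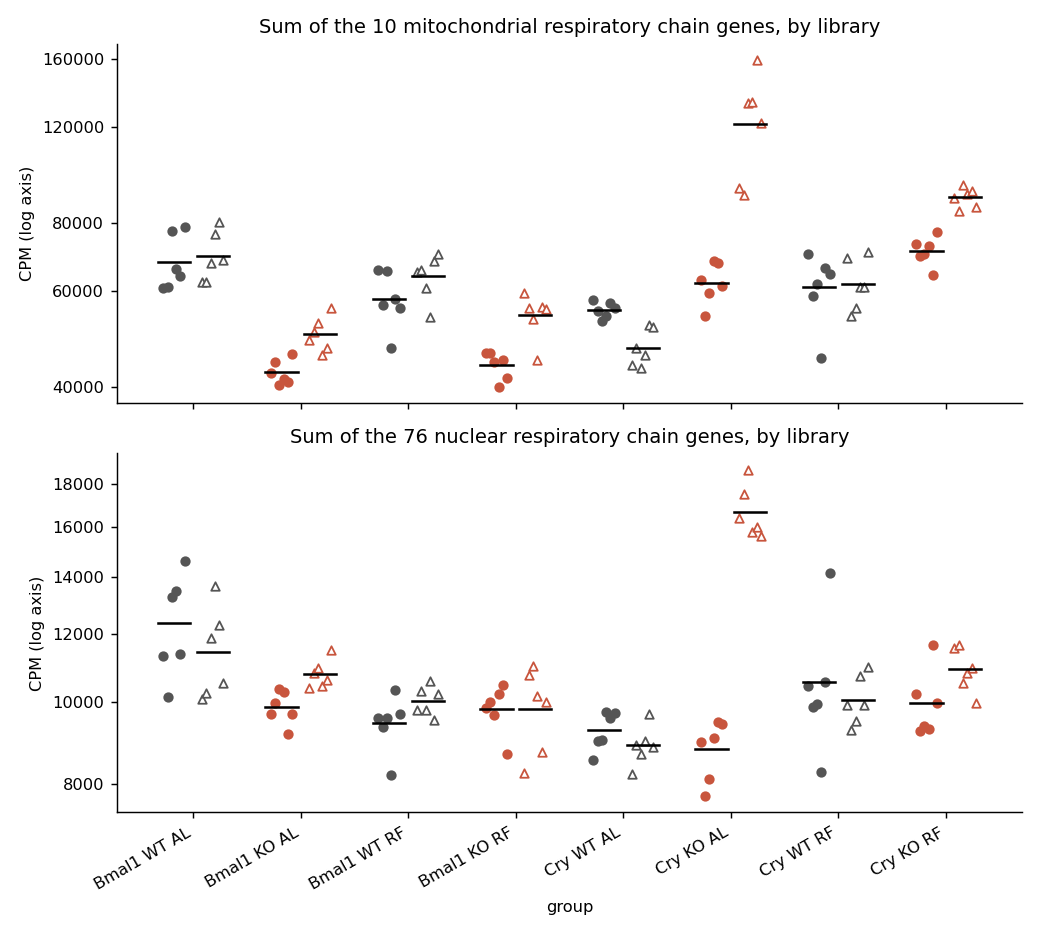
Summed scaled CPM of the 10 mitochondrial members (top) and the 76 nuclear members (bottom) in each library, on log axes, by group; grey is WT and red KO, filled circles and open triangles are the 2 series of a group, and bars are series means. The 6 libraries of Cry KO AL series 2 lie between 90170 and 159200 CPM for the mitochondrial sum and between 15610 and 18690 CPM for the nuclear sum.

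In Bmal1 KO mice fed ad libitum 9 of 10 mitochondrial members and 7 of 76 nuclear members were called lower than in WT. Of all genes 10.7% were called lower by the same test, so the nuclear count was not above that share. The summed level of the 10 mitochondrial members was 60770, 66710 and 80220 CPM (lowest, median, highest of 12 libraries) in Bmal1 WT AL and 40320, 45880 and 55920 CPM in Bmal1 KO AL. The 2 groups did not overlap. The summed level of the 76 nuclear members was 10060, 11620 and 14620 CPM in WT and 9168, 10360 and 11500 CPM in KO, with overlap. In CPM over counts outside the mitochondrial genome, without TMM factors, the nuclear sums were 10340, 11960 and 15030 in WT and 10800, 11730 and 12210 in KO, so that the medians lay closer together on that scale. The quotient of both sums within a library, which does not depend on how libraries are scaled, was 4.89, 5.76 and 6.53 in WT and 3.90, 4.46 and 4.86 in KO, again without overlap.

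By the quasi-likelihood test of edgeR, with p-values adjusted over all genes by Benjamini-Hochberg, 9 of 10 mitochondrial and 7 of 76 nuclear members fell in Bmal1 KO AL and 0 rose. By limma with the series as a random effect 6 mitochondrial members and 1 nuclear member fell. By edgeR 10.7% of all tested genes were called lower and 13.7% higher, and no such share was taken by limma. The median log2 difference (KO minus WT) was -0.58 over the mitochondrial and -0.23 over the nuclear members, against 0.02 over all genes. mt-Nd1, a membrane subunit of complex I (chrM:2751-3707), had 6044, 7323 and 10590 CPM in WT and 3640, 4320 and 5734 CPM in KO, and fell by 0.80 (SE 0.126, adjusted p = 1.97e-06). mt-Co1, the subunit of complex IV that carries its catalytic centre, had 23050, 26960 and 33200 CPM in WT and 16060, 18270 and 21420 CPM in KO, and fell by 0.58 (SE 0.125, adjusted p = 0.000306). mt-Cytb had 10710, 12500 and 15600 CPM in WT and 6896, 8389 and 10360 CPM in KO, and fell by 0.58 (SE 0.131, adjusted p = 0.000634). WT and KO libraries of mt-Nd1, mt-Co1 and mt-Cytb did not overlap, and the same held for mt-Nd4, a complex I subunit that fell by 0.63 (adjusted p = 0.00086). How many of all genes were without overlap here was not taken, so this has no background. The other called members were mt-Nd2 (-0.52) and mt-Nd6 (-0.44), the 1 protein gene on the opposite strand, with the 3 shared genes mt-Co3 (-0.72), mt-Co2 (-0.67) and mt-Atp6 (-0.57). mt-Nd5 did not pass, at -0.28 with an adjusted p of 0.132.

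Among the nuclear members Sdhd, a membrane anchor of succinate dehydrogenase (chr9:50596357-50603812), had the lowest value. It had 162.8, 226.2 and 277 CPM in Bmal1 WT AL and 133.2, 155.1 and 173.9 CPM in Bmal1 KO AL, with a small overlap, and fell by 0.51 (SE 0.087, adjusted p = 7.3e-06). The other 6 were Atp5j2 (-0.40) of complex V, Uqcrh (-0.38) and the core protein Uqcrc1 (-0.26) of complex III, and Ndufa1 (-0.38), Ndufb8 (-0.34) and Ndufv1 (-0.28), of which Ndufv1 carries the NADH site of complex I. Core subunits that did not pass included Ndufs1 (-0.03) of complex I, Sdha (0.03), the flavoprotein of complex II, Sdhb (-0.21), Uqcrfs1 (-0.20), the Rieske protein of complex III, Cox4i1 (-0.27), Cox5a (-0.23), Atp5b (-0.18) and Atp5a1 (-0.11). Uqcrc2 and Ndufc2, the members nearest to Arntl on chromosome 7 at 7.32 and 15.8 Mb, stood at -0.08 and -0.17 and did not pass.

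The count of nuclear members depended on which libraries shared the fit. Without Cry KO AL series 2, which is in neither Bmal1 group, 58 of 76 nuclear members were lower with the median still at -0.23, and all-gene backgrounds were 13.3% lower and 16.4% higher. The lower ones were 25 of 36 in complex I, 3 of 4 in complex II, 7 of 8 in complex III, 9 of 11 in complex IV and 14 of 17 in complex V, led by Sdhd (-0.52), Atp5e (-0.42) and Uqcr11 (-0.42); mitochondrial calls were 9 of 10 as before. Leaving out series 1 of Bmal1 KO AL or of Bmal1 WT AL left 1 nuclear call in either case, leaving out series 8 of Bmal1 WT AL gave 11, and without series 1 of Bmal1 WT AL 5 mitochondrial members were called. With library sizes alone in place of trimmed mean scaling (TMM), an alternative chosen after seeing the data, the median of all genes moved by 0.166, and the nuclear split became 3 higher and 1 lower with 8 mitochondrial members lower. Hepatocyte markers moved too: their sum was 77700 to 123500 CPM in WT and 32960 to 54940 CPM in KO, 2 of 6 fell and 0 rose, with Alb (albumin) lower by 1.77 (mean 21750 against 75000 CPM) and Ttr by 0.54 on the log2 scale. Their part in the member values was not tested.

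Under night feeding the Bmal1 KO difference kept its sign in the mitochondrial members and was near 0 in the nuclear ones. mt-Nd1 had 5127, 6320 and 7405 CPM in Bmal1 WT RF and 3395, 4551 and 6222 CPM in Bmal1 KO RF, and fell by 0.46 (SE 0.126, adjusted p = 0.00557 by edgeR). The groups overlapped for mt-Nd1 and for each other member. Called lower were 4 of 10 mitochondrial members, namely mt-Nd1, mt-Cytb (-0.36), mt-Nd2 (-0.35) and the shared mt-Co3 (-0.49), with a median of -0.36 over the 10; 10% of all genes were called lower and 10.5% higher. mt-Co1 did not pass at -0.30 (adjusted p = 0.0804). Of the nuclear members (median -0.02) Sdhd fell by 0.27 (adjusted p = 0.0211) and Ndufv3, an accessory subunit of the NADH module, rose by 0.38 (adjusted p = 0.0113). Sdhd had 150.5, 181.9 and 203.9 CPM in WT and 123.8, 153.4 and 176.2 CPM in KO, and Ndufv3 47.8, 56.2 and 63.5 CPM in WT and 56.3, 74.3 and 82.4 CPM in KO.

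Without Cry KO AL series 2 the counts in Bmal1 KO RF were 8 mitochondrial members lower and, of the nuclear ones, 5 higher (Ndufv3, Ndufa12, Cox7a2l and Ndufs5 among them) and 2 lower (Sdhd, Ndufa5), where 12.1% of all genes were lower and 13.1% higher. The mitochondrial count was 1 without Bmal1 KO RF series 2, 2 without Bmal1 WT RF series 2 and 0 without Bmal1 WT RF series 4, and the nuclear calls ranged from 0 to 1 in these fits. By limma with the series as a random effect 1 mitochondrial and 0 nuclear members passed. Scaling by library size gave 3 nuclear members higher and 1 lower. The quotient of mitochondrial to nuclear sums was 5.09, 6.29 and 7.16 in WT and 3.93, 4.74 and 7.21 in KO, with overlap. It ran from 3.93 to 4.78 in KO series 2, below all WT libraries, and from 4.41 to 7.21 in KO series 4, from which the overlap came. Mitochondrial ribosomal RNA, which carries little poly(A) and was not selected for, was high in series 4 of Bmal1 KO RF (1428 to 87340 CPM). In that comparison mt-Rnr1 and mt-Rnr2 rose by 1.74 and 1.86, and 3 of 5 tested RNAs without poly(A) rose; the part of RNA selection in the member values was not tested. Of 6 hepatocyte markers 1 fell here and 1 rose: Alb fell by 1.27 (mean 25160 against 60960 CPM) and Cyp2e1 rose by 0.38 (adjusted p = 0.0468 by edgeR). The hepatocyte sum, most of which is Alb in WT, was 56730 to 94010 CPM in WT and 32400 to 55030 CPM in KO, and its part in the member values was not tested.

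**Figure D2:**
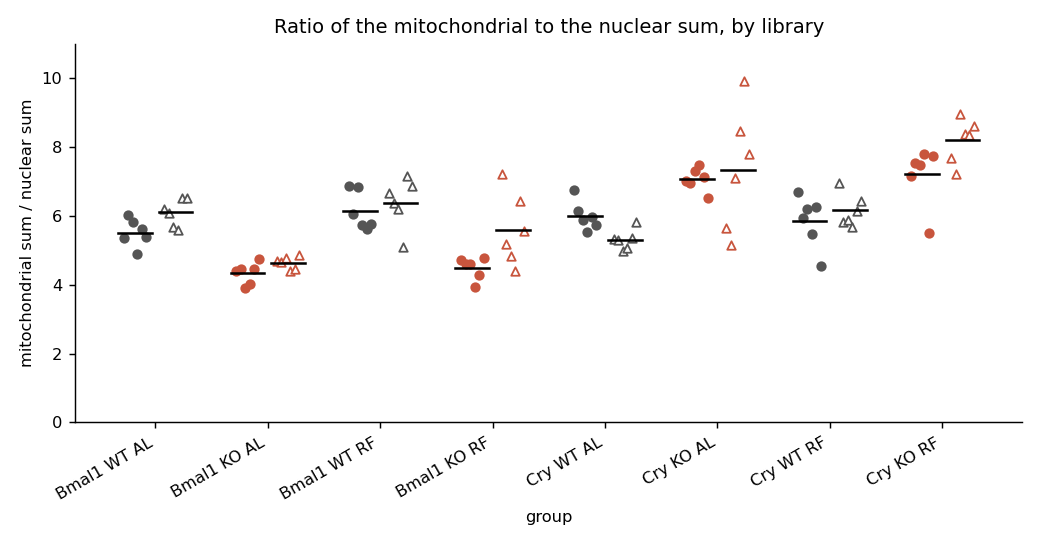
Summed mitochondrial over summed nuclear level in each library, by group; grey is WT and red KO, filled circles and open triangles are the 2 series, and bars are series means. Group medians were 4.46 in Bmal1 KO AL and 4.74 in Bmal1 KO RF, between 5.64 and 6.29 in the 4 WT groups, and 7.12 and 7.72 in Cry KO AL and Cry KO RF.

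In Cry KO RF 2 of 10 mitochondrial members and 0 of 76 nuclear members passed the test against Cry WT RF, all 10 mitochondrial values being above 0. mt-Nd1 had 5377, 6254 and 8357 CPM in Cry WT RF and 7585, 8830 and 10640 CPM in Cry KO RF, and rose by 0.51 (SE 0.126, adjusted p = 0.00561 by edgeR). mt-Co1 had 17620, 24540 and 27860 CPM in WT and 24610, 33460 and 40230 CPM in KO, and rose by 0.45 (adjusted p = 0.0162). Both pairs of groups overlapped in part. These were the 2 mitochondrial members called, where 3.28% of all genes were higher and 3.02% lower; mt-Nd6 (0.44), mt-Nd5 (0.40), mt-Cytb (0.33), mt-Nd4 (0.28) and mt-Nd2 (0.20) did not pass, and the median over the 10 was 0.39. Of the nuclear members 0 were called by edgeR, 0 had an unadjusted p under 0.05 and 0 were called by DESeq2, with a median of 0.01. Members near Cry1 and Cry2 were among these, with Ndufs3, 1.5 Mb from Cry2, at 0.06, and Uqcr11 (-0.05), Ndufs7 (-0.02) and Atp5d (0.04) within 4.99 Mb of Cry1.

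The number of calls under night feeding varied with the libraries fitted. In the fit without Cry KO AL series 2, 8 mitochondrial members were higher in Cry KO RF and 1 nuclear member was lower, Cox7a2l (-0.18), a factor that joins complexes III and IV into supercomplexes, where 4.22% of all genes were higher and 4.08% lower. The mitochondrial count fell to 0 without Cry KO RF series 5, to 1 without Cry WT RF series 6 and to 0 without Cry WT RF series 9, and it was 0 by limma with the series as a random effect. The summed mitochondrial level was 45150, 61370 and 70620 CPM in WT and 64120, 80620 and 94100 CPM in KO, and the quotient to the nuclear sum 4.55, 6.05 and 6.97 against 5.51, 7.72 and 8.96. Hepatocyte markers, of which 2 of 6 fell and 0 rose, summed to 58850 to 104400 CPM in WT and 80970 to 115800 CPM in KO; their part in the member values was not tested.

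Under ad libitum feeding the Cry KO comparison depended on series 2 of the knockout. In the fit of all libraries 72 of 76 nuclear and 10 of 10 mitochondrial members rose, with medians of 0.62 and 0.86, where 19.7% of all genes were called higher and 13.3% lower. The highest nuclear values were Ndufa2 (0.98) and Ndufa5 (0.92) of complex I and Uqcrq (0.89) of complex III, and the lowest of those called were Atp5b (0.17), Uqcrc2 (0.21) and Atp5a1 (0.21). Cox4i1, the main regulatory subunit of complex IV, had 185.7, 193.3 and 221.6 CPM in Cry WT AL, 172.9, 203.2 and 216.4 CPM in Cry KO AL series 1 and 422.4, 480 and 564.3 CPM in series 2. Ndufa2 had 36.2, 39.99 and 46.3 CPM in WT, 33.3, 38.0 and 42.6 CPM in series 1 and 109.3, 119.1 and 144.2 CPM in series 2. For both genes series 1 overlapped WT and series 2 lay above all WT libraries. Sdha, at 436.8, 487.8 and 534.4 CPM in WT, was 417.8 to 528.4 CPM in series 1 and 464.4 to 582.8 CPM in series 2, and did not pass (0.03).

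Without series 2 the Cry KO AL group held 6 libraries, and 1 mitochondrial member rose and 1 nuclear member fell. mt-Nd1 had 4491, 5496 and 6045 CPM in WT and 6094, 7011 and 8711 CPM in series 1, without overlap, and rose by 0.43 (SE 0.096, adjusted p = 0.00313 by edgeR). The nuclear member was Ndufb3 of complex I at -0.46. The medians were 0.19 over the mitochondrial and -0.07 over the nuclear members, and 2.6% of all genes were called higher and 2.53% lower. Values of mt-Co1 moved from 0.84 to 0.32, of mt-Cytb from 0.89 to 0.26, of mt-Nd4 from 0.95 to 0.17 and of mt-Nd2 from 0.64 to 0.14. The quotient of sums was 4.98, 5.64 and 6.76 in Cry WT AL, 6.522, 7.07 and 7.496 in series 1 and 5.15, 7.46 and 9.93 in series 2. In this measure the medians of both knockout series lay above the highest WT library. Of 5 tested RNAs without poly(A) 3 fell, with and without series 2, and mitochondrial ribosomal RNA was high in Cry WT AL series 2 (3263 to 15850 CPM); the part of RNA selection in the member values was not tested. Counts on the mitochondrial chromosome were 6.68% of the library on average in series 1 and 9.99% in series 2. Scaling by library size moved the median of all genes by -0.16 and left 63 nuclear and 10 mitochondrial members higher in the fit of all libraries.

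**Figure D3:**
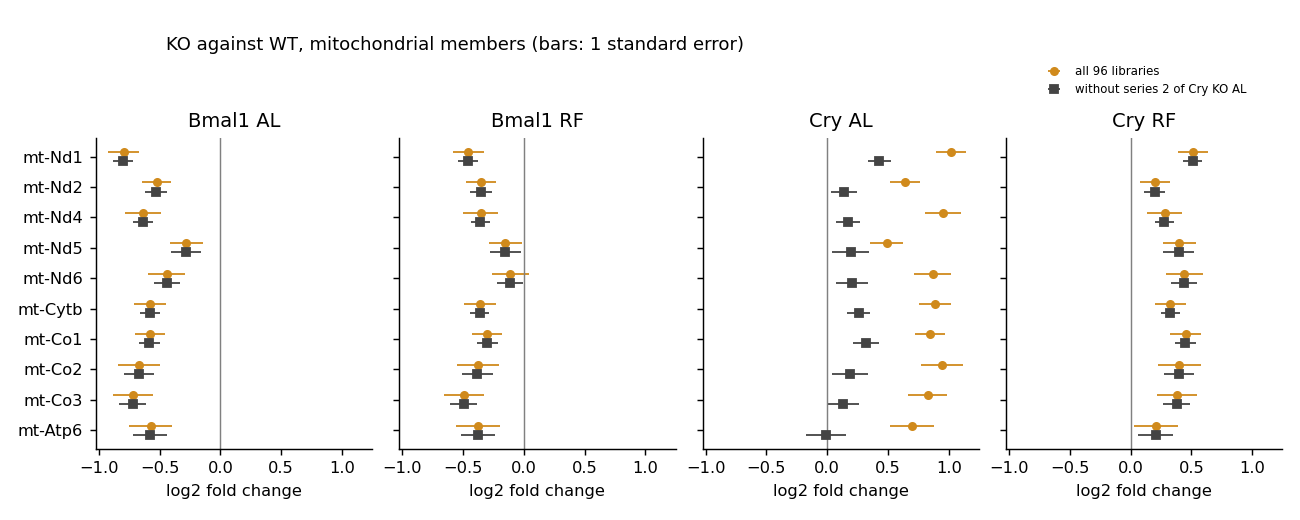
Log2 fold change of KO against WT for each of the 10 mitochondrial members in the 4 knockout comparisons, from all 96 libraries (orange circles) and without Cry KO AL series 2 (dark squares); bars are 1 standard error. All values lie below 0 in the Bmal1 line, and in Cry AL mt-Nd1 moves from 1.02 to 0.43 and mt-Atp6 from 0.70 to -0.01 when those libraries are left out.

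The difference between the knockout effects of both lines was tested directly, as the Cry KO minus WT difference less the Bmal1 KO minus WT difference. These tests share libraries with the comparisons above and add no independent samples. Under night feeding 8 of 10 mitochondrial members were higher in this contrast, with a median of 0.66, where 7.39% of all genes were higher and 7.82% lower. mt-Nd1 differed by 0.97 (SE 0.178, adjusted p = 4.03e-05 by edgeR), mt-Co1 by 0.75 (adjusted p = 0.00134) and mt-Cytb by 0.69 (adjusted p = 0.00571). Of the nuclear members 1 passed, Cox7a2l at -0.41 (adjusted p = 0.0188), and the median was 0.02. With Cry KO AL series 2 left out all 10 mitochondrial members passed, the uncertain mt-Co2, mt-Co3 and mt-Atp6 among them. Of the nuclear ones Cox7a2l (-0.41) and Sdhd (0.26) passed, where 8.51% of all genes were higher and 9.58% lower. The mitochondrial count was 3 without Bmal1 KO RF series 2, 2 without Cry KO RF series 5, 4 without Cry WT RF series 6, and 5 without Bmal1 WT RF series 4 or Cry WT RF series 9. Cox7a2l was called without Bmal1 KO RF series 4 or Cry WT RF series 9 and not without any other of the 8 series compared.

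Under ad libitum feeding 10 of 10 mitochondrial members (median 1.44) and 73 of 76 nuclear members (median 0.82) were higher in this contrast, where 20.7% of all genes were. These became, without Cry KO AL series 2, 8 of 10 (median 0.82) and 11 of 76 (median 0.18), where 8.66% of all genes were higher. mt-Nd1 differed by 1.81 with and 1.23 without those libraries, mt-Co1 by 1.42 and 0.90, and mt-Cytb by 1.46 and 0.84. The nuclear members that passed without them were led by Sdhd (0.51), Ndufs7 (0.39) and Atp5j2 (0.35). With library sizes alone the median of all genes moved by -0.325 in this contrast.

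**Figure D4:**
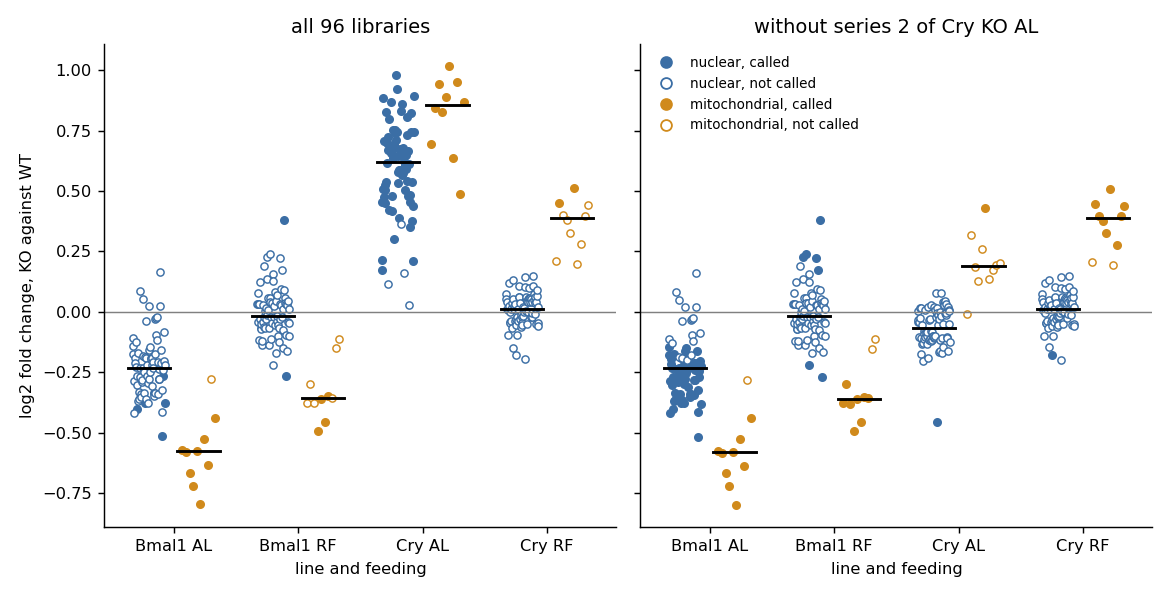
Log2 fold change of KO against WT, averaged over 6 times, for the nuclear (blue) and mitochondrial (orange) members in the 4 knockout comparisons, from all 96 libraries (left) and without Cry KO AL series 2 (right); points are genes, filled where called, and bars are medians. Mitochondrial medians were -0.58 and -0.36 in the Bmal1 line and 0.86 and 0.39 in the Cry line with all libraries, and the Cry AL median moved to 0.19 without series 2.

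In the comparison of night with ad libitum feeding (RF minus AL) in Bmal1 WT mice, 22 of 76 nuclear and 0 of 10 mitochondrial members were lower, with medians of -0.31 and -0.14, where 6.37% of all genes were lower and 9.33% higher. The 22 were 10 of complex I, 3 of complex II, 2 of complex III, 3 of complex IV and 4 of complex V. Ndufs8, an iron-sulfur subunit of complex I, had 55.8, 67.5 and 85.3 CPM in AL and 43.6, 50.3 and 55.3 CPM in RF, the 1 member without overlap, and fell by 0.45 (adjusted p = 0.0175 by edgeR). Overlap was not looked at over all genes, so this count has no background. After Ndufs8 came Cox6a1 (-0.42) and Ndufb11 (-0.39), and the least changed of those called were Atp5b (-0.26), Ndufa9 (-0.25) and Atp5a1 (-0.23). For the mitochondrial members 1 had an unadjusted p under 0.05 and 0 were called by DESeq2.

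The Bmal1 WT feeding calls were sensitive to single series. The nuclear count was 0 without Bmal1 WT AL series 1, without Bmal1 WT RF series 2 or without Bmal1 WT RF series 4, with medians between -0.23 and -0.37, and also 0 by limma with the series as a random effect. It was, without Cry KO AL series 2, 71 of 76 (median -0.32) with 2 mitochondrial members, mt-Nd1 (-0.30) and mt-Nd4 (-0.21), where 13.7% of all genes were lower. Scaling by library size moved the median of all genes by 0.106 and left 3 nuclear members lower.

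In the Bmal1 KO no member passed the test for feeding. Of 76 nuclear and 10 mitochondrial members 0 were called by edgeR, 0 had an unadjusted p under 0.05 and 0 were called by DESeq2, with medians of -0.08 and 0.11; 0.514% of all genes were higher and 0.0317% lower. Without Cry KO AL series 2 there were 0 calls, where 1.45% of all genes were called higher and 0.515% lower. In that fit 8 nuclear members had an unadjusted p under 0.05, a threshold at which no share of all genes was taken. Whether feeding acted differently in KO and WT was tested as the difference of the Bmal1 KO effect between feedings. No member passed, by edgeR or DESeq2, and 0% of all genes were called in either direction. All 76 nuclear and all 10 mitochondrial values had a positive sign, with medians of 0.24 and 0.25, and 2 nuclear members had an unadjusted p under 0.05. The count was also 0 without Cry KO AL series 2, where 0% of all genes were called higher and 0.00606% lower. In that fit 60 nuclear and 4 mitochondrial members had an unadjusted p under 0.05. The share of all genes at that threshold was not taken, so these counts have no background. With library sizes alone the median of all genes moved by -0.183 in this contrast, and the nuclear median by a like amount to 0.06.

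In Cry WT mice 0 members were called for feeding, with medians of 0.16 over the nuclear and 0.25 over the mitochondrial members, where 0.647% of all genes were higher and 0.938% lower. At an unadjusted p under 0.05 there were 13 nuclear and 2 mitochondrial members, and DESeq2 called 2 nuclear and 0 mitochondrial members. No share of all genes was taken at the unadjusted threshold. When Cry KO AL series 2 was left out 14 nuclear members rose, led by Ndufa5 (0.28), Sdhb (0.26) and Cox6c (0.26), with 2 mitochondrial ones, mt-Cytb (0.34) and mt-Nd4 (0.28), where 1.81% of all genes were higher. The medians thus had opposite signs in the WT mice of both lines, and the difference between them was not tested.

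In Cry KO mice the sign of the feeding values turned with series 2. With all libraries 53 of 76 nuclear members fell and Sdha rose by 0.22 (adjusted p = 0.00983 by edgeR), where 13.1% of all genes were lower and 5.07% higher. By limma with the series as a random effect, and by edgeR with only the compared groups fitted, the nuclear count was 0. The lowest were Uqcrq (-0.85), Atp5e (-0.79) and Ndufa2 (-0.79), and the median was -0.48. Of the mitochondrial members (median -0.22) 0 were called, 2 had an unadjusted p under 0.05 and DESeq2 called 1. Without Cry KO AL series 2, 12 nuclear members rose and 0 fell (median 0.24), led by Ndufc2 (0.37), Uqcrb (0.36) and Ndufa5 (0.36), with 4 mitochondrial members higher (median 0.43), where 1.28% of all genes were higher. With series 2 left in, the nuclear count was 18 without Cry KO RF series 3 and 30 without Cry KO RF series 5, and leaving out Cry KO AL series 1 gave 9 mitochondrial members lower. The difference of the Cry KO effect between feedings followed the same libraries: 46 nuclear members (median -0.59) and 1 mitochondrial member, mt-Nd4 (-0.67), were lower, where 5.48% of all genes were, led by Atp5e (-0.98), Uqcrq (-0.95) and Ndufa5 (-0.94). These counts, too, were 0 by limma and with only the compared groups fitted. Without series 2 it held 0 calls and a nuclear median of 0.07, where 0% of all genes were called higher and 0% lower. At an unadjusted p under 0.05 it then held 3 nuclear and 0 mitochondrial members. DESeq2 was run on all libraries only, with 60 nuclear calls.

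WT mice of both lines differed when fed ad libitum. Against Bmal1 WT AL, 48 of 76 nuclear and 6 of 10 mitochondrial members were lower in Cry WT AL, with medians of -0.38 and -0.43, where 9.42% of all genes were lower. Sdhb, the iron-sulfur subunit of complex II, had 174.3, 220.6 and 278.1 CPM in Bmal1 WT AL and 132.7, 144.3 and 185 CPM in Cry WT AL, and was lower by 0.52 on the log2 scale (adjusted p = 0.0011 by edgeR). Uqcr11 (-0.49) and Atp5e (-0.49) followed. The libraries of 9 nuclear members did not overlap between the lines, Ndufa4, Cox8a and Atp5c1 among them. The share of all genes without overlap was not taken, so this count has no background. mt-Nd1 was lower by 0.53 and mt-Cytb by 0.45 on the same scale. The counts were 73 and 9 without Cry KO AL series 2, where 15.2% of all genes were lower. The nuclear count was 10 without Bmal1 WT AL series 1, 16 without Cry WT AL series 2 and 10 without Cry WT AL series 4, and the mitochondrial count 0 without Bmal1 WT AL series 1 or Cry WT AL series 4. By limma with the series as a random effect both counts were 0. With library sizes alone the median of all genes moved by 0.136, and 28 nuclear members were lower.

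Under night feeding no member differed between the WT lines by edgeR, with 0 at an unadjusted p under 0.05 and 0 by DESeq2, where 0.197% of all genes were higher and 0.659% lower. Medians were 0.08 over the nuclear and 0.01 over the mitochondrial members. In the fit without Cry KO AL series 2 there were 0 calls. At an unadjusted p under 0.05 it held 15 of 76 nuclear members, all of them higher in Cry WT RF, and 0 mitochondrial members. The share of all genes at that threshold was not taken. Bmal1 WT AL, which is the control of the Bmal1 KO AL and of the Bmal1 WT feeding comparison, is also in this comparison of lines, so their values share its libraries. Its median nuclear sum of 11620 CPM stood above those of the other WT groups, at 9730 CPM (Bmal1 WT RF), 8990 CPM (Cry WT AL) and 9926 CPM (Cry WT RF).

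Few members had a daily rhythm by the test used, a cosine of 24 h with an adjusted p under 0.05 and a fitted range of at least 0.5 log2 from peak to trough. With all libraries the 1 member called was Atp5s. In Bmal1 WT RF its range was 0.91 with a peak at ZT 5.51 (adjusted p = 0.00955 by edgeR), and in Cry WT RF 0.83 with a peak at ZT 8.37 (adjusted p = 0.0107). Atp5s had 4.35, 7.88, 6.20, 5.13, 3.49 and 4.18 CPM at ZT 0, 4, 8, 12, 16 and 20 in series 2 of Bmal1 WT RF and 6.18, 6.98, 6.27, 6.05, 3.54 and 4.67 CPM in series 4. In Cry WT RF it had 4.65, 5.04, 6.88, 7.74, 4.13 and 4.85 CPM in series 6 and 5.75, 4.87, 7.56, 6.43, 3.48 and 3.49 CPM in series 9. The levels were lowest at ZT 16 in all 4 series. With about 5 CPM, Atp5s is among the least abundant members, and the call was lost in each group when either of its 2 series was left out.

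The share of all genes called rhythmic was 9.97% in Bmal1 WT AL, 0.0317% in Bmal1 KO AL, 12.8% in Bmal1 WT RF, 5.26% in Bmal1 KO RF, 6.67% in Cry WT AL, 0% in Cry KO AL, 18.9% in Cry WT RF and 6.63% in Cry KO RF. Against these, 1 of 86 members was called in each of 2 groups and 0 in the other 6, where between 0 and 6 members had an unadjusted p under 0.05. At that threshold the share of all genes ran from 5.83% to 24.4% in these 6 groups. Median fitted ranges were 0.41 over the nuclear and 0.39 over the mitochondrial members in Cry WT RF, against 0.52 over all genes, and 0.10 over the nuclear members in Bmal1 WT RF, against 0.46. The widest mitochondrial median was that of Cry KO AL at 0.59, with 6 members at an unadjusted p under 0.05 and 0 called. In that group 7.99% of all genes had an unadjusted p under 0.05. Its mitochondrial sum ran from 90170 to 159200 CPM over the libraries of series 2 and from 53900 to 67990 CPM over those of series 1. DESeq2 was not run for rhythms.

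Without Cry KO AL series 2, 12 members were called in Cry WT RF, where 22.3% of all genes were. mt-Cytb (range 0.61) and mt-Nd4 (0.62) peaked at ZT 21.4, and the nuclear Ndufa5, Ndufb2, Ndufc1, Ndufs7, Uqcr10, Uqcr11, Cox7a2, Atp5g1 and Atp5h peaked between ZT 19.3 and 21.2, with Atp5g1 the widest at 0.63. mt-Cytb had 13330, 10660, 10450, 7787, 12810 and 14680 CPM from ZT 0 to 20 in series 6 and 13810, 10610, 9691, 10770, 11210 and 14120 CPM in series 9. Both series of mt-Cytb were high at ZT 0 and ZT 20. The nuclear members differed more between the series. Their mean log2 level was 6.175 at ZT 12 and 6.96 at ZT 20 in series 6. In series 9 it was 6.491 at ZT 12 and 6.531 at ZT 20, so the wide nuclear swing was that of series 6. Atp5s again peaked apart from the other called members, at ZT 8.37. In the same fit Atp5s was called in Bmal1 WT RF, where 14.7% of all genes were, and Ndufa8 (range 0.52, peak at ZT 21) in Cry KO RF, where 9.61% were.

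**Figure D5:**
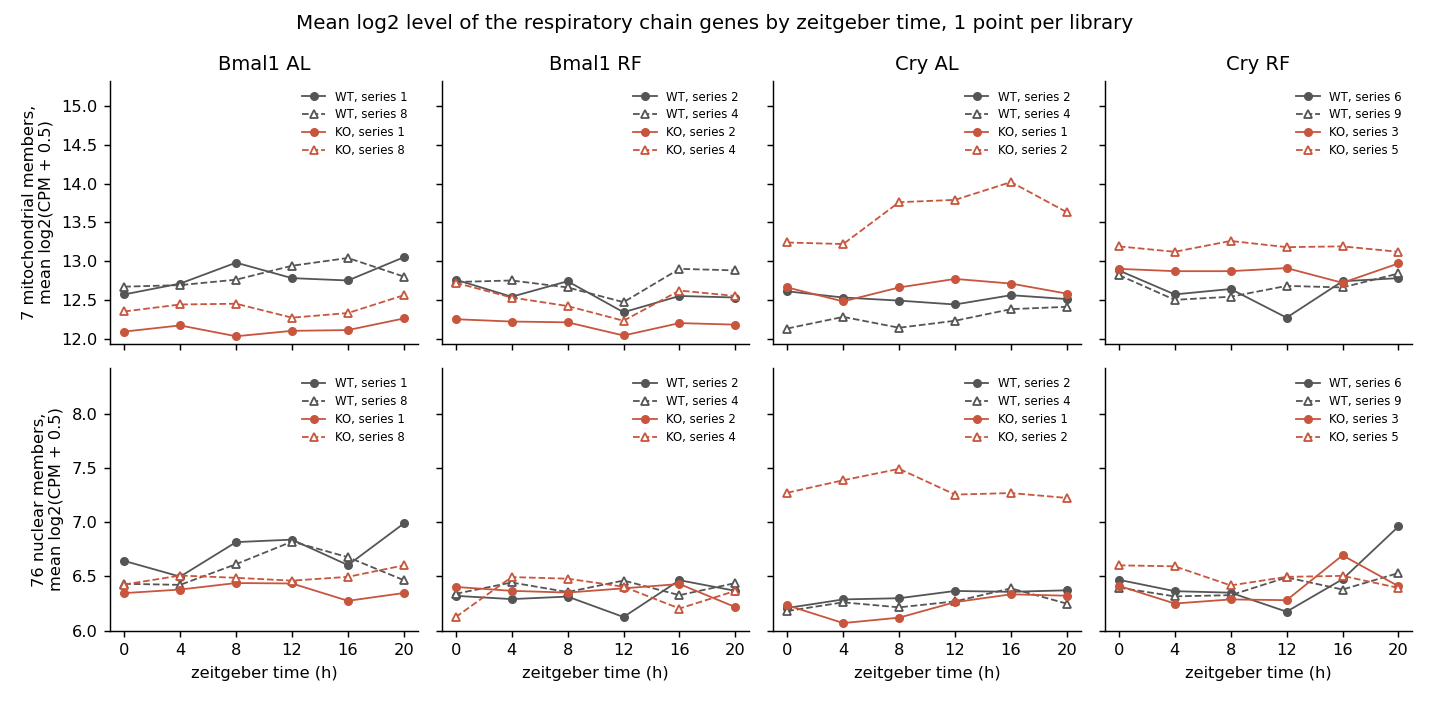
Mean log2(CPM + 0.5) of the 7 mitochondrial members with under 90% of windows shared (top) and of the 76 nuclear members (bottom) against zeitgeber time in hours, 1 point per library, with a line for each series (grey WT, red KO). The 2 series of Cry KO AL run apart at all 6 times in both rows, by more than the series of any other group at any time.

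No member passed the edgeR test for a difference of rhythm between KO and WT, in either line or feeding, with all libraries or without Cry KO AL series 2. The shares of all genes whose rhythm differed were 0.767% (Bmal1 AL), 1.32% (Bmal1 RF), 0.913% (Cry AL) and 2.66% (Cry RF), and at most 1 member had an unadjusted p under 0.05 in each of these tests. At that threshold the share of all genes was between 7.43% and 15.4%. The quotient of mitochondrial to nuclear sums, averaged over the 2 libraries of a time, ran from 4.21 to 4.81 in Bmal1 KO AL and from 5.25 to 6.08 in Bmal1 WT AL, so that the 2 groups stayed apart at all 6 times. In Cry KO RF it ran from 6.94 to 8.23 and in Cry WT RF from 5.50 to 6.84.

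Promoters were examined for the 62 of 76 nuclear members found in the RefSeq table of promoters (GRCm38.p6, 250 bases before to 50 after the start; 27025 genes). The NRF1 core GCGCANGCG, searched on both strands, was in 20 (32.3%) of them and in 7.03% of all promoters. The GABP motif CCGGAAG was in 16 (25.8%) against 9.93%, the YY1 motif ATGGCGG in 10 (16.1%) against 4.69%, and the ERR site AAGGTCA in 8 (12.9%) against 5.38%. The E-box CACGTG was in 5 (8.06%), namely Ndufv1, Ndufa7, Atp5g1, Atp5g3 and Atp5l, against 8.09% of all promoters. Overlaps between motifs were not removed, and a match is a description of letters, not of binding. Sdhd, called lower in Bmal1 KO under both feedings, had an NRF1 core and a GABP motif in the 104 to 15 bases before its start, and Ndufv1, called lower in Bmal1 KO AL, had an E-box in the 196 to 137 bases before its start; they are printed on the minus strand with the motifs in capitals.
Sdhd chr9:50603864-50603953: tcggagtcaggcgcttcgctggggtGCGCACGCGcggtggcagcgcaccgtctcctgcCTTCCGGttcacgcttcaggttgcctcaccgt
Ndufv1 chr19:4012892-4012951: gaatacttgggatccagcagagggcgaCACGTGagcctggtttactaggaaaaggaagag
Of the 5 genes with an E-box, Ndufv1 passed in Bmal1 KO AL with all libraries; Atp5g3 (-0.23), Atp5g1 (-0.21), Atp5l (-0.17) and Ndufa7 (-0.16) did not, though all of them were lower, like most members, without Cry KO AL series 2.

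Other genes of the pathway were counted from lists of assembly factors, carriers and mitochondrial gene expression. Their counts are to be read against all tested genes, of which 13.7% were higher and 10.7% lower in Bmal1 KO AL, and the counts of ribosomal proteins lay below these shares. In Bmal1 KO AL, factors that assemble complex I had 2 of 15 tested genes higher and 1 lower, with Ndufaf4 at -0.40 and Tmem186 at 0.24. Assembly factors of complexes II to V had 1 higher and 0 lower of 31, the former being Atpaf1 (0.40), a chaperone of the ATP synthase. Electron carriers and transporters had 3 higher and 5 lower of 24, with Coq8a, a kinase-like protein of coenzyme Q synthesis, at 1.102 and the carrier Ucp2 at -1.25. Genes that transcribe and process mitochondrial DNA had 3 higher and 3 lower of 31, with Fastkd3 at 0.41 and Mterf2 at -1.19. Mitochondrial ribosomal proteins had 1 higher and 3 lower of 77, with Mrps36 at -0.44 and Mrps21 at -0.43, and the tricarboxylic acid cycle 2 higher and 7 lower of 17, with Idh2 at -0.55. Regulators had 3 higher and 0 lower of 13, with Gabpb2 at 0.36 and Nrip1, a corepressor, at 0.50. Without Cry KO AL series 2 the ribosomal proteins had 1 higher and 13 lower, complex I assembly factors 5 higher and 3 lower, and assembly factors of complexes II to V 2 higher and 4 lower. In that fit 16.4% of all genes were called higher and 13.3% lower.

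In Bmal1 KO RF, where 10.5% of all genes were higher and 10% lower, 6 of 15 complex I assembly factors rose and 1 fell, with Nubpl at 0.34 and Ndufaf6 at 0.49. Assembly factors of complexes II to V had 4 higher and 1 lower of 31 (Atpaf1 0.31, Tmem70 0.26), carriers 5 and 3 of 24 (Coq8a 1.12, Pdss2 0.48), mitochondrial DNA expression 7 and 1 of 31 (Fastkd3 0.28, Fastkd2 0.25), ribosomal proteins 2 and 0 of 77 (Mrps10 0.27, Mrpl44 0.24) and the tricarboxylic acid cycle 3 and 2 of 17 (Cs 0.47, Idh3a 0.52). Of 13 regulators 1 rose, Ppargc1a (0.74), the coactivator PGC-1alpha, and 2 fell, Ppara (-0.59) among them. Coq8a rose under both feedings. The ribosomal proteins had, without Cry KO AL series 2, 14 higher and 1 lower and assembly factors of complexes II to V 8 higher and 1 lower. In that fit 13.1% of all genes were called higher and 12.1% lower.

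In Cry KO AL, where 19.7% of all genes were higher and 13.3% lower with all libraries and 2.6% and 2.53% without series 2, the counts of the lists depended on series 2. With all libraries 69 of 77 mitochondrial ribosomal proteins, 18 of 31 assembly factors of complexes II to V, 10 of 15 of complex I, 13 of 24 carriers, 9 of 31 genes of mitochondrial DNA expression and 6 of 17 of the tricarboxylic acid cycle were higher, and 0, 1, 0, 1, 0 and 1 were lower. Named by their p were Mrps21 (1.14), Mrpl38 (0.64), Sdhaf1 (1.005), Coa3 (0.66), Ecsit (0.52), Ndufaf8 (0.72), Coq10b (1.13), Coq8b (0.67), Tfb2m (0.27), Supv3l1 (0.27), Idh2 (0.62) and Suclg2 (0.39), and among 13 regulators, with 1 higher and 2 lower, Esrra (0.42) and Gabpa (-0.28). Without series 2 the higher counts were 1, 0, 0, 2, 1 and 1. In Cry KO RF, where 3.28% of all genes were higher and 3.02% lower, the lists held few calls: Sdhaf2 (-0.18), the 1 call among the assembly factors; Coq10b (0.71), the 1 carrier; Fastkd3 (0.27), the 1 gene of mitochondrial DNA expression; 0 ribosomal proteins; Idh2 (0.36) of the tricarboxylic acid cycle; and, of 13 regulators, 2 higher and 1 lower, with Esrrg, an ERR nuclear receptor, at 1.77 and Gabpb1 at -0.33. The same lists without Cry KO AL series 2 had 2 ribosomal proteins, 2 complex I assembly factors, 2 carriers, 2 genes of mitochondrial DNA expression, 2 of the tricarboxylic acid cycle and 2 regulators higher, with 2 assembly factors of complexes II to V, 1 gene of mitochondrial DNA expression and 1 regulator lower, where 4.22% of all genes were higher and 4.08% lower.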

How the data were processed

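Raw counts per gene were deposited by the authors as 1 table for the 96 liver libraries. Per the labels' protocols, libraries were stranded and selected for poly(A) from 250 ng of total RNA; STAR 2.4.0i and build mm10 are named in the submitters' processing notes. Which program counted the reads, with which annotation and strand setting, is not given in the sources used here. Symbols were matched for 55154 identifiers; the other 267 held 0.0449% of counts. Libraries of 1 group and time differed beyond counting noise (chi-square per degree of freedom 10.14 to 744.4), so each counted as a library of its own.

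Levels are CPM scaled by TMM, except that the member rule and the means given with it use plain CPM. The main test was edgeR 4.0.16 (R 4.3.3) with quasi-likelihood, genes filtered by filterByExpr (minimum count 10, minimum total 15; 15772 of 35670 genes with counts, 99.94% of counts), 1 mean per group and time in a joint fit of 96 libraries, comparisons averaged over the 6 times, and Benjamini-Hochberg adjustment over all genes with a threshold of 0.05. For comparisons of mean level, shares of all genes were taken at this adjusted threshold only. Whether libraries overlap between groups was looked at for members only. Rhythms were fitted as a 24 h cosine in each group, with a minimum range of 0.5 log2. Alternatives were DESeq2 1.42.0, limma 3.58.1 with the series as a random effect (consensus correlation 0.249), other scalings, filters and sets of libraries. The procedure was tested on simulated data.

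Genes were named by a rule: the 13 mitochondrial protein genes, core subunits, the 3 highest and 3 lowest called nuclear members of each comparison, the widest called rhythms, isoform pairs, members within 20 Mb of a targeted gene, and the 2 called genes with the smallest p in each other list. Members outside it are named where a count is small. The members and lists were chosen with earlier results of these data known. Whether replicate numbers in the Bmal1 line pair libraries is not said in the labels, and the main test did not treat them as pairs. Results for some genes are not reported here.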

Additional observations from a re-analysis of the deposited data

Results flagged for a closer look

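Knockout effects that differed between feedings or lines by a direct test (edgeR, adjusted over all genes) were looked at again. The Cry KO effect differed between feedings for 46 nuclear members and 1 mitochondrial member, and for 0 of either without Cry KO AL series 2. The knockout effects of both lines differed under ad libitum feeding for 73 nuclear and 10 mitochondrial members, and for 11 and 8 without those libraries. Under night feeding they differed for 1 nuclear member (Cox7a2l) and 8 mitochondrial members, and for 2 and 10 without them. These tests compare the knockouts through WT mice of different lines, and line cannot be told apart from the knockout target.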

How the results depend on the processing

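Over the counts and levels, 459 values under alternatives stayed near the main value and 139 moved; of single members, 1462 kept direction and call, 432 lost the call and 24 reversed. The cause was not tested. Shares of all genes called were not taken under these alternatives. The counts that follow therefore cannot tell a move of the members from a move of all genes. With only the compared groups fitted, nuclear and mitochondrial calls were 53 in Bmal1 KO AL (nuclear), 6 and 8 in Bmal1 KO RF, 18 in Cry KO AL (nuclear), 5 in Cry KO RF (mitochondrial), 68 and 1 for feeding in Bmal1 WT, 7 and 1 in Cry WT, 0 in Cry KO (nuclear), 73 between WT lines under AL (nuclear), 0 and 0 for the Cry KO effect between feedings, and 2 between lines under RF (nuclear). By limma-voom with the series as a random effect they were 1 in Bmal1 KO AL (nuclear), 0 and 1 in Bmal1 KO RF, 0 in Cry KO RF (mitochondrial), 0 for feeding in Bmal1 WT and in Cry KO (nuclear), 0 and 0 between WT lines, 0 and 0 between feedings in the Cry line, and 0 and 4 between lines under RF. Bmal1 KO AL nuclear calls were 28 with no filter, 12 with a mean of 1 CPM, 15 with scaling without mitochondrial genes, 12 without the 3 shallowest libraries, 17 by DESeq2 and 4 with library sizes alone. With no filter there were also 1 nuclear call in Bmal1 KO RF, 4 mitochondrial in Cry KO RF, 57 nuclear for feeding in Bmal1 WT, 1 mitochondrial in Cry KO, 3 mitochondrial between feedings in the Cry line, 0 nuclear between lines under RF and 0 rhythmic in Bmal1 WT RF, which a test of any difference among times also left at 0. With a mean of 1 CPM, mitochondrial calls were 1 for feeding in Cry KO and 2 between feedings in the Cry line. Library sizes alone gave 4 nuclear calls in Bmal1 KO RF, 3 for feeding in Bmal1 WT, 28 between WT lines, 0 and 0 between feedings in the Cry line and 3 rhythmic in Cry WT RF. DESeq2 gave 4 mitochondrial calls in Cry KO RF, 2 nuclear for feeding in Cry WT, 1 mitochondrial in Cry KO and 3 between feedings in the Cry line. Without the 3 shallowest libraries there were 2 mitochondrial calls in Bmal1 KO RF, 21 nuclear for feeding in Cry KO and 0 and 0 between feedings in the Cry line. Without 6 libraries high in Saa1, Isg15 or Ctrb1 there were 1 mitochondrial call in Cry KO RF, 2 nuclear for feeding in Cry WT, 26 and 3 between WT lines and 0 and 0 between feedings in the Cry line. In CPM over counts outside the mitochondrial genome, without TMM factors, mean nuclear sums were 11600 in Bmal1 KO AL against 12130 in Bmal1 WT AL (10310 against 11900 in the main scaling), 10670 in Bmal1 WT RF and 10080 in Cry WT AL.

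Leaving out 1 series at a time, nuclear and mitochondrial calls ranged from 1 to 58 and 5 to 10 in Bmal1 KO AL, 0 to 7 and 0 to 8 in Bmal1 KO RF, 1 to 75 and 1 to 10 in Cry KO AL, and 0 to 1 and 0 to 8 in Cry KO RF. For feeding they ranged from 0 to 71 and 0 to 2 in Bmal1 WT, 0 to 14 and 0 to 2 in Cry WT, and 12 to 71 and 0 to 9 in Cry KO; between WT lines under AL from 10 to 73 and 0 to 9; between feedings in the Cry line from 0 to 73 and 0 to 9; between lines from 11 to 74 and 8 to 10 under AL and 0 to 2 and 2 to 10 under RF. Rhythmic members ranged from 0 to 1 in Bmal1 WT RF and Cry KO RF and 0 to 12 in Cry WT RF. Shares of all genes called are given above for fits without Cry KO AL series 2. They were not taken for the fits without another series.

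Some log2 values turned sign without Cry KO AL series 2, and are given as ranges over the fits without 1 series. In Cry KO AL these were Atp5a1 (-0.04153 to 0.3939), Cox5a (-0.1044 to 0.7776), Ndufa2 (-0.0823 to 1.565), Ndufa5 (-0.1012 to 1.5), Sdhb (-0.01136 to 0.8202), Uqcrq (-0.126 to 1.455) and mt-Atp6 (-0.009947 to 1.199). For feeding in Cry KO they were Atp5e (-1.333 to 0.2017), Atp5h (-0.7524 to 0.2756), Cox4i1 (-1.052 to 0.2031), Ndufa2 (-1.359 to 0.2784), Ndufb6 (-0.7373 to 0.2372) and Uqcrq (-1.397 to 0.1736). Between feedings in the Cry line they were Atp5c1 (-0.7747 to 0.04182), Atp5e (-1.534 to 0.006793), Cox4i1 (-1.218 to 0.04344), Ndufa5 (-1.52 to 0.07831), Ndufv1 (-0.7445 to 0.002767), Uqcrq (-1.51 to 0.06646) and mt-Nd4 (-1.14 to 0.1045). With library sizes alone Atp5b turned in Cry KO AL (-0.02167) and, between lines under AL, Uqcrc2 (-0.06739), Atp5a1 (-0.04547) and Atp5b (-0.01014).

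Same-numbered libraries of the Bmal1 line deviated together only weakly, with correlations from -0.0727 to 0.223 under AL and 0.0452 to 0.204 under RF; with the replicate block the counts were 6 nuclear and 9 mitochondrial under AL and 2 and 4 under RF. Low counts limit mainly Atp5s, Ndufb2, mt-Co2, mt-Co3 and mt-Atp6. For mt-Co2, mt-Co3 and mt-Atp6 nearly all windows are also shared with nuclear copies.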
